A study of Mus musculus with 10 samples.

Results

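The cell cycle and replication genes described here are 52 genes, of 55385 in the deposited tables, that were named by symbol and found by mapping the tables' versioned Ensembl identifiers to mouse symbols. They fall into 22 genes of G2 phase and mitosis (G2/M), 15 genes of the G1/S transition and DNA replication, 6 G1 cyclins and cyclin-dependent kinases, 4 transcription factors and 5 brakes on the cycle. All 52 were found, and all 52 passed the filter on low counts. The study compared RNA of mouse liver endothelial cells from 5 libraries labelled Alk1-HEC-KO (genotype KO) and 5 labelled Control (genotype WT). Alk1 is another name of Acvrl1, an endothelial receptor for BMP9 and BMP10. Liver cells other than hepatocytes were enriched on a Nycodenz gradient, and endothelial cells were then taken with beads against CD146, the product of Mcam. No label states that every library is a separate mouse. Not given in the sources used here are the Cre driver, the exons that were deleted, how old the mice were and how the libraries were batched.

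A dividing cell commits itself in G1, when D-type cyclins with the kinases CDK4 and CDK6 phosphorylate the retinoblastoma protein and release E2F transcription factors. E2F factors then switch on genes for DNA replication, such as those of the MCM helicase and of nucleotide synthesis, and the factors B-Myb and FOXM1 later switch on the genes of mitosis. CDK inhibitors such as p21, the product of Cdkn1a, oppose these kinases. Most sinusoidal endothelial cells of the adult liver are quiescent, and they enter the cycle after injury or partial hepatectomy.

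Promoters of some of these genes are shown because they carry the sequence side of the division into G2/M and G1/S genes. In textbook descriptions, genes of mitosis are held off in quiescent cells through the cell cycle homology region (CHR), and replication genes through E2F elements. RefSeq promoter windows of 300 bases (250 before to 50 after the start, GRCm38.p6) were in the reference table for 40 of the 52 genes. The CHR was searched as TTTGAA or TTCGAA, the CCAAT box as CCAAT, and the E2F element as TTTCGCG and its variants TTTGGCG, then also TTTCCCG, and lastly TTTGCCG, each on both strands. Matches of different motifs did not overlap in these windows. Each line below gives the 200 bases before the start, read along the gene's own strand, with matches in capitals.
Cdk1 (chr10:69352913-69353112, minus strand): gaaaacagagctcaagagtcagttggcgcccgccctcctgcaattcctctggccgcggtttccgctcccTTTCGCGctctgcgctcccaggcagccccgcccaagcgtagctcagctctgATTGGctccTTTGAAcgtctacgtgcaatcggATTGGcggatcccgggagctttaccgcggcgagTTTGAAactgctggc
Ccnb2 (chr9:70421555-70421754, minus strand): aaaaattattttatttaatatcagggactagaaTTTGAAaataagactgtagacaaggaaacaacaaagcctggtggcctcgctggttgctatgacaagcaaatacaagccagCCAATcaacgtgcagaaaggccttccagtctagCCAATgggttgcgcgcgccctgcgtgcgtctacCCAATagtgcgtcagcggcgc
Mki67 (chr7:135716380-135716579, minus strand): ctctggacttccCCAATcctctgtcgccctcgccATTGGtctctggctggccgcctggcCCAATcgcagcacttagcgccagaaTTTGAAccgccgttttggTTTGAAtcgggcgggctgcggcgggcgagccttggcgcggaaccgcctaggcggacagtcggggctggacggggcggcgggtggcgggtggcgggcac
Top2a (chr11:99024190-99024389, minus strand): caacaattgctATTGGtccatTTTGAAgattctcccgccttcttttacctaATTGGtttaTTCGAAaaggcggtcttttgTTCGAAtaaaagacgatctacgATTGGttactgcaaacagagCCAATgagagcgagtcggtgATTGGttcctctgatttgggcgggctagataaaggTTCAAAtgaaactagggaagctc
Mcm7 (chr5:138171884-138172083, minus strand): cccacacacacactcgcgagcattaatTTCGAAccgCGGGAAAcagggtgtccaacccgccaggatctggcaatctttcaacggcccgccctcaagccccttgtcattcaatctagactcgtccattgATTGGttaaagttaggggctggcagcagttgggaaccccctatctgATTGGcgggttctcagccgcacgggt
Cdc6 (chr11:98907951-98908150, plus strand): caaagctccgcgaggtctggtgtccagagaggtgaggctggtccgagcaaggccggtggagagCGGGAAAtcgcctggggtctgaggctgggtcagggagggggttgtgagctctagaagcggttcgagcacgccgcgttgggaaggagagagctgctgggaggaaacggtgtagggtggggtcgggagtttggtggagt

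Cdk1, Ccnb2, Mki67 and Top2a are G2/M genes, and each of their stretches holds CHR letters together with CCAAT letters on either strand. Mcm7 and Cdc6 are replication genes, and both stretches hold the letters CGGGAAA, the E2F letters read on the other strand. The Mcm7 stretch also holds CHR and CCAAT letters, and the Cdk1 stretch also holds E2F letters. Among the 18 G2/M genes with a window, 14 (77.8%) held a CHR match, 16 (88.9%) a CCAAT match and 3 (16.7%) an E2F match. Among the 12 G1/S genes with a window, 2 (16.7%) held a CHR match, 8 (66.7%) a CCAAT match and 6 (50%) an E2F match. Over all 32851 windows the shares were 19.2% for CHR, 37.4% for CCAAT and 6.7% for E2F. A match is a description of letters and not of binding.

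**Figure D1:**
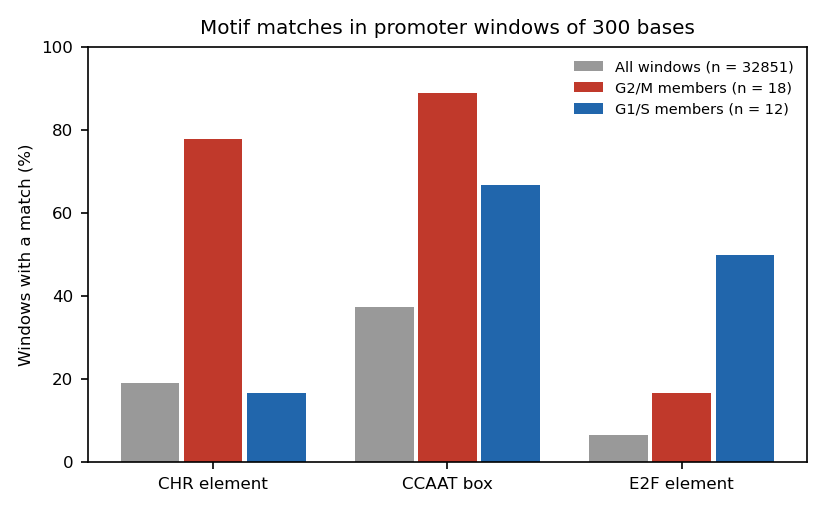
Percent of RefSeq promoter windows of 300 bases with at least 1 match to the CHR, CCAAT or E2F letters, in all 32851 windows, in 18 G2/M genes and in 12 G1/S genes. CHR matches stood in 77.8% of the G2/M windows and 16.7% of the G1/S windows, and E2F matches in 16.7% and 50%.

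Cdkn1a, the brake described below, is shown with the 200 bases before the start of the more upstream of its windows, with a p53 response element in capitals.
Cdkn1a (chr17:29090779-29090978, plus strand): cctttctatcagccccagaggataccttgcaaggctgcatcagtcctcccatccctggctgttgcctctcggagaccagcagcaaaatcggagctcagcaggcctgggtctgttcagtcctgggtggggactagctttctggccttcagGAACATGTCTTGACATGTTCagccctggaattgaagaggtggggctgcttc
The element was searched by name, as a pair of adjoining decamers with at most 1 letter off and no letter off in their cores. This search was chosen after the sequence had been seen. It matched in 18 of all 32851 windows (0.0548%), and Cdkn1a was the only one of the 40 genes with a match. None of the 13 windows of the other p53 target genes described below held it.

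The targeted gene went against its label. Acvrl1 was at 124, 125, 136, 114 and 135 CPM (counts scaled by TMM library size) in controls 1 to 5, and at 239, 246, 250.2, 258 and 245 CPM in Alk1-HEC-KO libraries 1 to 5. The groups did not overlap (log2 fold change 0.96 ± 0.05 SE, edgeR adjusted p = 1.7e-07; exact two-sided permutation p = 0.0079, the smallest that 5 against 5 can give). The group is therefore called the knockout-labelled libraries, and all directions below compare it with the controls. Whether the labels were exchanged, or transcript from a deleted allele was counted, was not tested, and an exchange would turn every direction given. Totals ran from 23489494 to 23602771 estimated counts per library. The 10 endothelial markers were all present, and their summed level was 15363 to 16152 TPM (the deposited unit scaled by transcript length) in controls and 11872 to 13034 TPM in knockout-labelled libraries. Of the 10, 6 fell (Kdr, Tek, Eng, Stab2, Clec4g and Oit3) and 3 rose (Pecam1, Tie1 and Mcam). Mean Clec4g went from 6907 TPM in controls to 4787 TPM in knockout-labelled libraries, and Eng from 2840 to 1809 TPM. Mean Pecam1 went from 730 to 919 TPM. Mcam, the target of the bead selection, rose by a log2 fold change of 0.71 (edgeR adjusted p = 1.1e-04). Library 5 stood highest for most cycle genes in either group, so results are also given without control 5, and the calls also without knockout-labelled library 5. Leaving out control 5 alone lowers the control mean of the genes that were highest in it.

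Most cycle genes did not pass the test between the groups, and the largest difference was in a brake. Of the 52 genes 4 rose (Cdkn1a, Ccnd1, Mcm7 and Mybl2), 2 fell (Mcm3 and Gins2) and 46 were not called at an edgeR adjusted p of 0.05. That is 11.5% called, while 19.7% of the 15043 tested genes were called, 10.6% higher and 9.08% lower. At an unadjusted p under 0.05 there were 14 of the 52, beside 32.3% of all tested genes. The groups did not overlap in 3 of the 52 (5.77%), all higher, beside 15.4% of all tested genes, 8.4% higher and 7.05% lower. The fitted log2 fold change was positive in 43 of the 52 and negative in 9, with a median of 0.34, and the median over all tested genes was 0.00. Without control 5, 9 of the 52 rose and 1 fell: Cdc6, E2f1, Foxm1, Top2a and Tpx2 were then called and Gins2 was not. Without knockout-labelled library 5, 3 of the 52 rose and 1 fell: no gene gained a call, and Gins2 and Mybl2 lost theirs. Without controls 4 and 5, 5 rose and none fell, and Cdkn1a, Ccnd1 and Mcm7 were called together with Cdc6 and Tpx2.

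**Figure D2:**
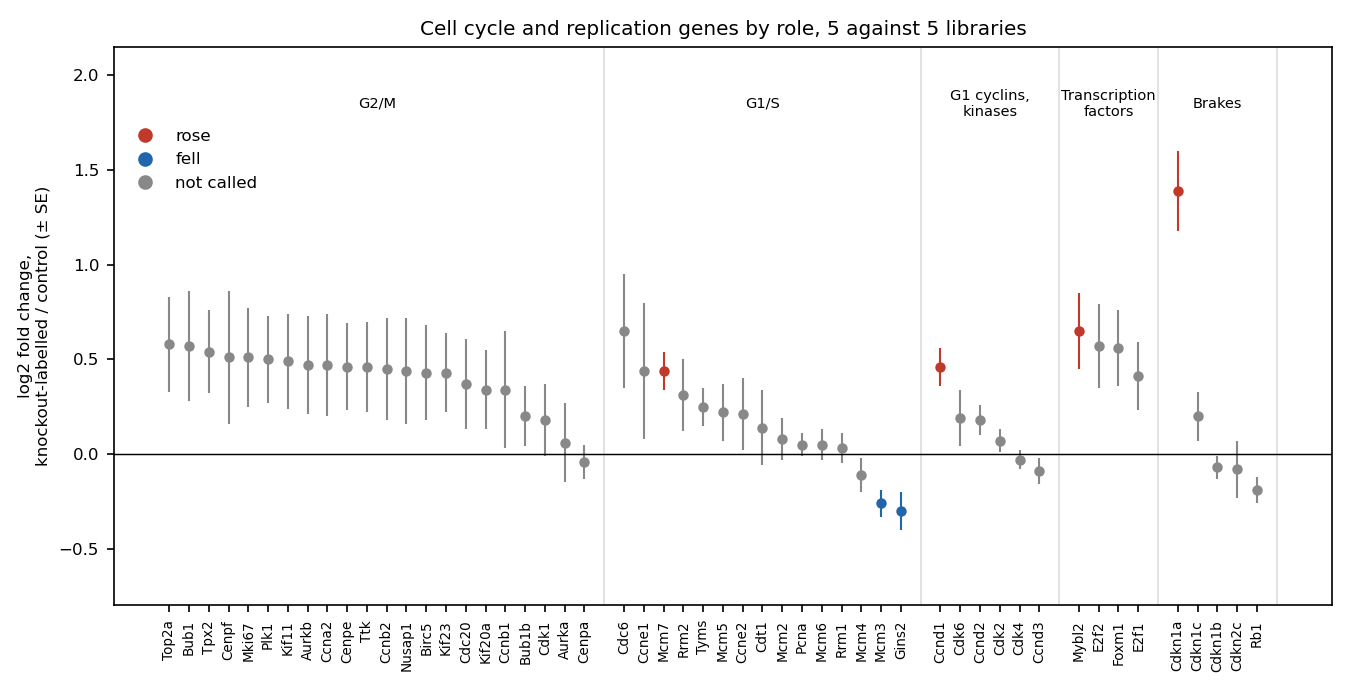
Log2 fold change of the 52 genes (knockout-labelled over control, ± SE from edgeR, 5 against 5 libraries), grouped by role and ordered by size. Cdkn1a is highest at 1.39, and the G2/M genes lie from -0.04 to 0.58 with wide errors and no call.

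Cdkn1a rose the most. This gene (ENSMUSG00000023067.14, chromosome 17 from 29090976 to 29100727, plus strand, GRCm38) encodes p21, an inhibitor of cyclin-dependent kinases. Cdkn1a stood at 55.8, 105, 90.1, 59.3 and 62.5 CPM in controls 1 to 5. In knockout-labelled libraries 1 to 5 it was 220.4, 166, 144, 235 and 211 CPM. Every knockout-labelled library was above every control. Cdkn1a averaged 74.5 ± 21.6 CPM in the controls and 195 ± 38.6 CPM in the other group (SD, n = 5 per group), which is 2.62-fold (log2 fold change 1.39 ± 0.21 SE, adjusted p = 0.0015 by edgeR). In deposited TPM, which can be compared between genes, Cdkn1a lay below the replication clamp gene Pcna in controls (67.1 and 123 TPM) and above it in knockout-labelled libraries (188 and 136 TPM).

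The other 4 brakes did not pass. Cdkn1b, which encodes the CDK inhibitor p27, had a log2 fold change of -0.07 ± 0.06 (SE, edgeR adjusted p = 0.41), and its CPM lay between 77.7 and 87.1 in controls and between 74.9 and 86.3 in knockout-labelled libraries. Cdkn1c, which encodes p57, lay between 56.4 and 75.7 CPM in the controls and between 54.6 and 93.5 CPM in the knockout-labelled libraries (edgeR adjusted p = 0.34). Cdkn2c encodes p18, an inhibitor of CDK4 and CDK6, and was at 17.6 ± 2.76 and 16.7 ± 3.21 CPM (SD, n = 5 per group). Rb1, the gene of the retinoblastoma protein, was at 50.5 ± 5.79 CPM in the controls and 44.4 ± 0.939 CPM in the knockout-labelled libraries (SD, n = 5 per group; adjusted p = 0.094, edgeR), and it was called lower only without control 3 (log2 fold change -0.24, adjusted p = 0.017). Among the brakes the median log2 fold change was -0.07, with 2 positive and 3 negative.

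Of the 6 G1 cyclins and kinases 1 rose, cyclin D1, and none fell. Ccnd1 (ENSMUSG00000070348.5, chromosome 7 from 144929931 to 144939925, minus strand) was at 446, 328, 382, 340.25 and 444 CPM in controls 1 to 5. In knockout-labelled libraries 1 to 5 it was at 471, 566, 549, 486 and 594 CPM. All knockout-labelled libraries lay above all controls, with the gap between the groups, from control 1 to knockout-labelled library 1, narrower than the spread within either. Ccnd1 averaged 388 ± 55.8 and 533 ± 52.8 CPM (SD, n = 5 per group), which is 1.37-fold (log2 fold change 0.46 ± 0.10 SE, edgeR adjusted p = 0.0062). Ccnd1 overlaps LTO1 on the opposite strand, which was not called (log2 fold change -0.07).

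The other D-type cyclins and their kinases did not pass the test. Ccnd2 was at 258 ± 22.8 CPM in the controls and 293 ± 26.9 CPM in the knockout-labelled libraries (SD, n = 5 per group; adjusted p = 0.12, edgeR), and leaving out control 1 or knockout-labelled library 4 made it a higher call, with adjusted p of 0.042 and 0.039. Ccnd3 was at 212 ± 11.6 and 199.6 ± 20.9 CPM (SD, n = 5 per group; adjusted p = 0.45, edgeR). Cdk4 had the highest level of the 52 genes per transcript length, 355 TPM over all libraries, and a log2 fold change of -0.03 ± 0.05 (SE). Its partner kinase gene Cdk6 was at 1.55 TPM, so Cdk4 was the main of the 2 D-cyclin kinase genes by level. Ccnd1 (210.0 TPM), Ccnd3 (188 TPM) and Ccnd2 (79.0 TPM) were all well expressed. The means of Ccnd1 and Ccnd3 changed order between the groups: 170.5 and 188 TPM in controls, 249.5 and 187 TPM in knockout-labelled libraries. In controls 1 and 5 Ccnd1 was already the higher, at 210 and 201 TPM beside 205 and 189 TPM for Ccnd3. Cdk2, the kinase partner of cyclins E and A, was at 22.9 ± 0.568 and 24.1 ± 2.05 CPM (SD, n = 5 per group).

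**Figure D3:**
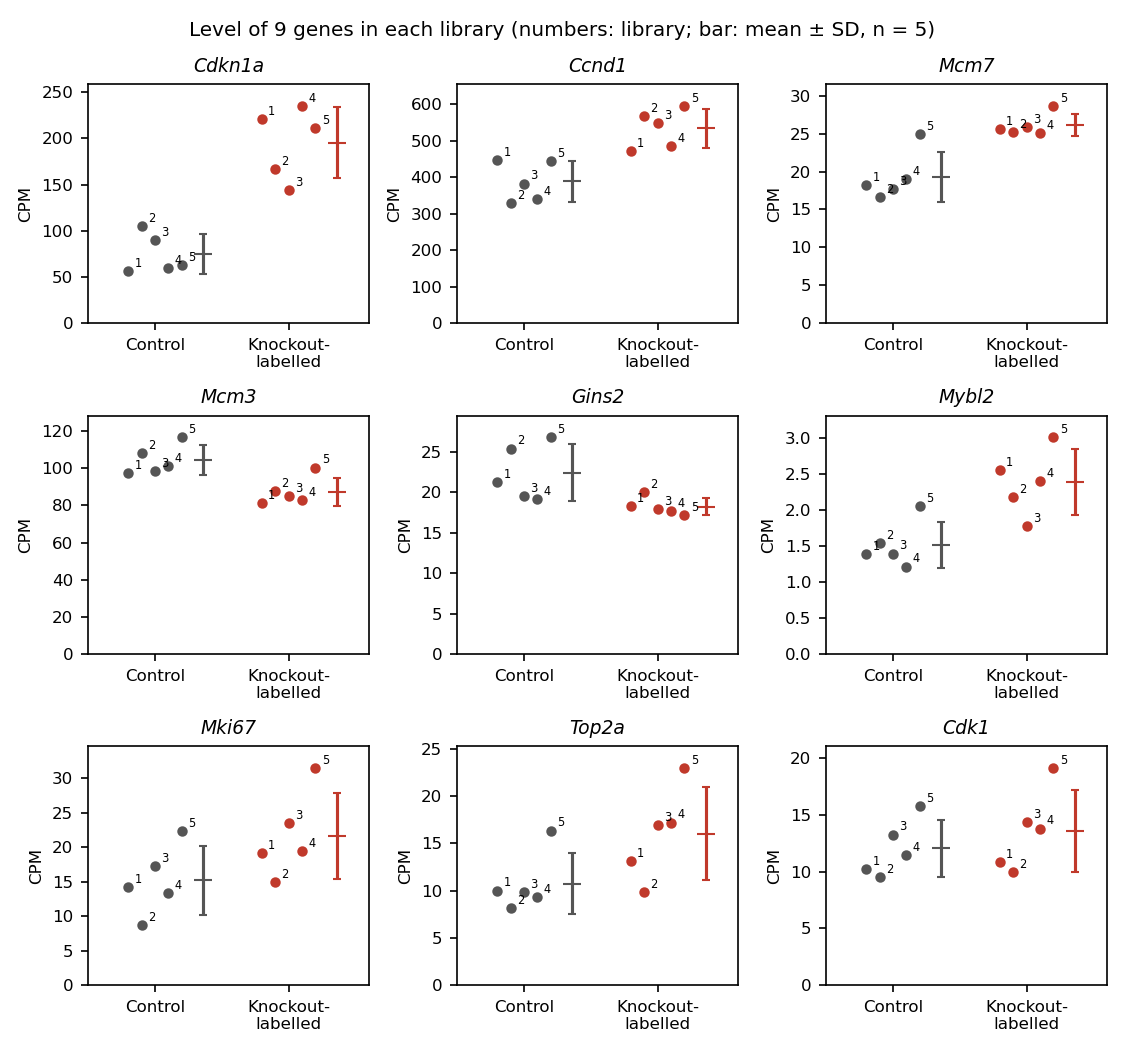
CPM of 9 genes in each library, with the library number beside each point and the mean ± SD (n = 5) as a bar. Cdkn1a, Ccnd1 and Mcm7 do not overlap between the groups, the other 6 genes do, and library 5 is the highest of both groups for Mki67, Top2a and Cdk1.

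The G1/S and replication genes had calls in both directions, and most of their fold changes were positive. Of 15 genes 1 rose, 2 fell and 12 did not pass. The fitted log2 fold change was positive in 12 and negative in 3, with a median of 0.14 and a range from -0.30 to 0.65. The MCM helicase, a ring of 6 subunits that unwinds DNA at origins, had called members in opposite directions. Mcm7 (ENSMUSG00000029730.16, chromosome 5 from 138164583 to 138172422, minus strand) was at 18.2, 16.6, 17.7, 19.0 and 24.98 CPM in controls 1 to 5 and at 25.6, 25.2, 25.9, 25.1 and 28.7 CPM in knockout-labelled libraries 1 to 5. The groups did not overlap, though control 5 stood just under the lowest knockout-labelled library. Its log2 fold change was 0.44 ± 0.10 (SE, edgeR adjusted p = 0.0083).

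Mcm3 (ENSMUSG00000041859.10, chromosome 1 from 20802968 to 20820312, minus strand) fell. It was at 97.6, 108, 98.7, 101 and 117 CPM in controls 1 to 5 and at 81.4, 87.6, 84.9, 83.0 and 100.4 CPM in knockout-labelled libraries 1 to 5. Only knockout-labelled library 5 reached the range of the controls. The log2 fold change was -0.26 ± 0.07 (SE, edgeR adjusted p = 0.019), and the call ended without controls 4 and 5 (adjusted p = 0.086), with library size alone as the scaling (adjusted p = 0.061), and when deposited TPM was tested by limma (adjusted p of 0.068 and 0.067 with pseudocounts of 1 and 0.1), where the log2 fold change was between -0.21 and -0.25.

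The other helicase subunits did not pass. Mcm2 had a log2 fold change of 0.08 ± 0.11, Mcm4 of -0.11 ± 0.09, Mcm5 of 0.22 ± 0.15 and Mcm6 of 0.05 ± 0.08 (SE). In TPM over all libraries Mcm3 (77.9) was the highest of the 6 subunit genes, followed by Mcm6 (31.2), and Mcm2, Mcm7, Mcm5 and Mcm4 lay between 14.9 and 17.5. Mcm7 overlaps Cops6 and Ap4m1 on the opposite strand and hosts 3 microRNA genes. Ap4m1 rose by a log2 fold change of 0.27 ± 0.08 (SE, edgeR adjusted p = 0.037) and Cops6 was not called (log2 fold change 0.02). Whether counting used strand is not given in the sources used here, so reads from any sequence that Mcm7 shares with these genes may not be told apart.

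Gins2, a subunit of the GINS complex that works with the MCM helicase, fell, with a call that most alternatives ended. The gene (ENSMUSG00000031821.11) lies on chromosome 8 from 120578633 to 120589304, on the minus strand. It was at 21.3, 25.4, 19.5, 19.1 and 26.8 CPM in controls 1 to 5 and at 18.2, 19.97, 17.9, 17.7 and 17.2 CPM in knockout-labelled libraries 1 to 5. Controls 2 and 5 were the highest, and knockout-labelled library 2 lay within the range of the controls. The log2 fold change was -0.30 ± 0.10 (SE, edgeR adjusted p = 0.049). The call ended without control 1, 2 or 5 or without knockout-labelled library 1, 3, 4 or 5, with adjusted p from 0.058 to 0.11. Its opposite-strand neighbours Gse1 and Gm20388 were not called.

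Of the licensing factors, Cdc6 had the largest log2 fold change of the G1/S genes without a call, 0.65 ± 0.30 (SE, edgeR adjusted p = 0.16). CDC6 protein helps to load the helicase at origins. Cdc6 was at 1.14, 1.33, 1.40, 1.26 and 3.20 CPM in controls 1 to 5 and at 1.97, 2.51, 2.37, 2.27 and 3.93 CPM in knockout-labelled libraries 1 to 5. Library 5 stood far above the others in both groups, and the remaining 4 controls were all below every knockout-labelled library. Without control 5 the log2 fold change was 1.02 (edgeR adjusted p = 0.0084), and without knockout-labelled library 5 the gene was not called. Over 21 alternatives the log2 fold change of Cdc6 ran from 0.43 to 1.02. Cdt1, the other licensing factor, was at 4.99 ± 1.39 and 5.49 ± 1.08 CPM (SD, n = 5 per group).

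Genes of nucleotide supply and of cyclin E stayed below the threshold. Tyms, thymidylate synthase, was at 7.70 ± 0.46 CPM in the controls and 9.17 ± 0.949 CPM in the knockout-labelled libraries (SD, n = 5 per group; adjusted p = 0.087, edgeR) and was called higher without knockout-labelled library 1 (adjusted p = 0.033). The ribonucleotide reductase genes Rrm1 and Rrm2 had log2 fold changes of 0.03 ± 0.08 and 0.31 ± 0.19 (SE). Pcna, the sliding clamp of DNA polymerase, was at 106 ± 3.19 and 109 ± 8.32 CPM (SD, n = 5 per group), among the steadiest of the 52. The cyclin E genes Ccne1 and Ccne2 were low, at 1.12 and 2.99 TPM, with log2 fold changes of 0.44 ± 0.36 and 0.21 ± 0.19 (SE).

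All 4 transcription factors had positive fold changes, and 1 of them was called. Mybl2 (ENSMUSG00000017861.11, chromosome 2 from 163054687 to 163084688, plus strand) encodes B-Myb. It was at 1.39, 1.54, 1.40, 1.21 and 2.05 CPM in controls 1 to 5 and at 2.56, 2.18, 1.78, 2.40 and 3.01 CPM in knockout-labelled libraries 1 to 5. Knockout-labelled library 3 lay below control 5, so the groups overlapped. The log2 fold change was 0.65 ± 0.20 (SE, edgeR adjusted p = 0.034). Leaving out control 1, 2, 3 or 4, or knockout-labelled library 1, 2, 4 or 5, ended the call (adjusted p from 0.052 to 0.089), and in log2(TPM + 1) (adjusted p = 0.3).

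The other 3 factors had an unadjusted p under 0.05 and no call. Foxm1, a driver of mitotic genes, was at 5.65 ± 1.43 and 8.33 ± 2.09 CPM (SD, n = 5 per group; adjusted p = 0.074, edgeR), and DESeq2 called it (adjusted p = 0.043). E2f2, an activating E2F, was at 2.26 ± 0.573 and 3.36 ± 0.805 CPM (SD, n = 5 per group; adjusted p = 0.085, edgeR). E2f1 was at 7.17 ± 1.58 and 9.55 ± 2.04 CPM (SD, n = 5 per group; adjusted p = 0.12, edgeR). Foxm1 and E2f1 were called higher without control 5, with adjusted p of 0.038 and 0.046. E2f2 was called higher with transcript length offsets (edgeR adjusted p = 0.034). In log2(TPM + 1) and log2(TPM + 0.1) E2f2 was also called higher (limma adjusted p = 0.036 and 0.04). The 4 factors were scarce, between 1.12 and 5.22 TPM over all libraries.

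The 22 G2/M genes were nearly all somewhat higher in knockout-labelled libraries, and none passed the test. The fold change was positive in 21 of 22, with a median of 0.45 and a range from -0.04 for Cenpa to 0.58 for Top2a. At an unadjusted p under 0.05 edgeR had 2 of the 22 (Top2a and Tpx2), DESeq2 4 and limma-voom 4, and none of these tools called a G2/M gene at an adjusted p under 0.05. The median standard error of these genes was 0.24, beside 0.099 over all tested genes. With the replicate number as a block in edgeR, 7 of the 22 were called higher and 18 had an unadjusted p under 0.05. No label ties libraries of the same number, so which of these fits is right cannot be told here. Since the 22 genes varied together between libraries 21 of one sign is not 21 separate observations.

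Mki67 encodes the proliferation marker Ki-67. It was at 14.2, 8.71, 17.3, 13.4 and 22.4 CPM in controls 1 to 5 and at 19.1, 14.9, 23.4, 19.4 and 31.5 CPM in knockout-labelled libraries 1 to 5. The ranges overlapped, with control 5 above 3 of the knockout-labelled libraries (log2 fold change 0.51 ± 0.26 SE, edgeR adjusted p = 0.21). Top2a, the topoisomerase that untangles sister chromatids, was at 10.01, 8.11, 9.86, 9.27 and 16.4 CPM and at 13.1, 9.82, 17.0, 17.2 and 23.0 CPM (edgeR adjusted p = 0.13). Here control 5 and knockout-labelled library 2 made the overlap, and without control 5 the gene was called (log2 fold change 0.78, adjusted p = 0.029).

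Cdk1, the kinase that starts mitosis, differed less. It was at 10.2, 9.48, 13.3, 11.5 and 15.8 CPM in controls 1 to 5 and at 10.8, 9.94, 14.3, 13.8 and 19.1 CPM in knockout-labelled libraries 1 to 5 (log2 fold change 0.18 ± 0.19 SE, edgeR adjusted p = 0.57). Its cyclin partners Ccnb1, Ccnb2 and Ccna2 had log2 fold changes of 0.34 ± 0.31, 0.45 ± 0.27 and 0.47 ± 0.27 (SE). Of the mitotic kinases, Plk1 had 0.50 ± 0.23, Aurkb 0.47 ± 0.26, Ttk 0.46 ± 0.24 and Aurka 0.06 ± 0.21. Birc5, the survivin subunit of the Aurora B complex, had 0.43 ± 0.25.

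Spindle checkpoint genes had log2 fold changes of 0.57 ± 0.29 for Bub1, 0.20 ± 0.16 for Bub1b and 0.37 ± 0.24 for Cdc20, the activator of the anaphase-promoting complex. The kinesin motor genes Kif11, Kif20a and Kif23 had 0.49 ± 0.25, 0.34 ± 0.21 and 0.43 ± 0.21, and the spindle proteins Tpx2 and Nusap1 had 0.54 ± 0.22 and 0.44 ± 0.28. Tpx2 was called higher without control 5 (adjusted p = 0.014). Bub1 and Kif23 were called higher when deposited TPM was tested in place of counts (log2(TPM + 1) differences 0.65 and 0.62, limma adjusted p = 0.017 and 0.024). Of the kinetochore genes Cenpe had 0.46 ± 0.23 and Cenpf 0.51 ± 0.35, and Cenpf was the other way in log2(TPM + 1), at -0.12.

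Per transcript length the G2/M genes were scarce. Their median over all libraries was 3.90 TPM, and 20 of 22 were under 10 TPM, while the G1/S genes had a median of 15.4 TPM and the G1 cyclins and kinases 133 TPM. Cenpa, the centromeric histone variant, stood apart with 58.2 TPM, and Cdk1 with 24.3 TPM was the only other above 10. Cenpa was also the steadiest of the 22, with 32.4 to 40.1 CPM in the controls and 32.4 to 41.8 CPM in knockout-labelled libraries. Within the 22 it was the only one with a negative fold change, and the one that followed the others least from library to library (r = 0.47 with the mean of the other 21).

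Within each group the libraries spread further in mitotic genes than the group means lay apart. The mean log2 CPM of the G2/M genes was 2.30, 1.77, 2.55, 2.25 and 2.87 in controls 1 to 5 and 2.65, 2.23, 2.99, 2.71 and 3.18 in knockout-labelled libraries 1 to 5. Library 5 was the highest and library 2 the lowest of either group. Among controls 20 of the 22 genes were highest in control 5 and 18 lowest in control 2, and among knockout-labelled libraries 18 were highest in library 5 and 20 lowest in library 2. Their median log2 fold change was 0.64 without control 5, 0.31 without control 2 and 0.33 without knockout-labelled library 5. In this mean each knockout-labelled library lay above the control of the same number. No label ties the libraries with the same number together, and whether they belong together cannot be told here.

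**Figure D4:**
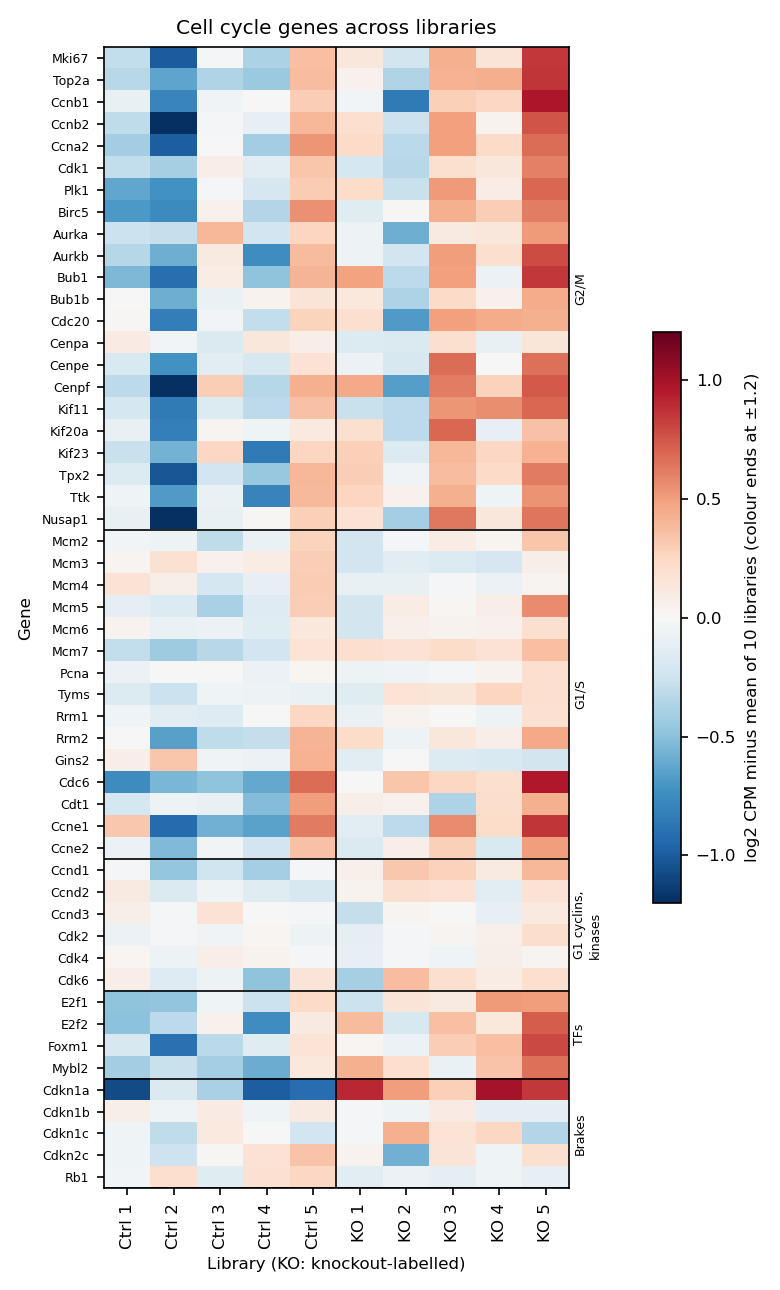
Log2 CPM of each gene in each library minus its mean over the 10 libraries (red above, blue below), with genes in rows by role and libraries in columns. The G2/M rows change colour together from library to library, with control 2 lowest and knockout-labelled library 5 highest, while Cdkn1a separates the groups.

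After the group means were removed, pairs of G2/M genes had a median Pearson r of 0.82 over the 10 libraries, positive in 230 of 231 pairs. These correlations are given as a description, since all points share their library and its depth. Of the 22 genes 18 had an r of at least 0.85 with the mean of the others, led by Mki67 (0.99) and Ccna2 (0.98). The G1/S genes had a median r of 0.63 among themselves and 0.51 with the G2/M genes. Rrm2 (0.83), Ccne2 (0.82) and Ccne1 (0.81) followed the G2/M genes most closely of that role, and Gins2 (-0.18) did not.

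Outside those roles, Foxm1 (0.88) and the brake Cdkn2c (0.88) followed the mean of the G2/M genes. Cdkn1a did not (-0.25), and neither did Rb1 (-0.13) or Ccnd2 (0.02). Cdkn1a, with the largest fold change of the 52 genes, was thus not among those that rose and fell with mitotic genes within the groups. Ccnd1 had 0.55, Mybl2 0.38 and Mcm3 0.38.

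Markers of other cells also differed between libraries, and in bulk RNA more cells of a type and more RNA per cell cannot be told apart. Summed over the 22 genes, the G2/M level was 146, 114, 142, 129.6 and 189.5 TPM in controls 1 to 5 and 161, 144, 202, 174 and 229.6 TPM in knockout-labelled libraries 1 to 5. Of 10 stellate cell and fibroblast markers 3 rose (Col1a1, Col1a2 and Col3a1), and their sum was 76.7 to 145 TPM in controls and 123 to 199 TPM in knockout-labelled libraries. It was highest in knockout-labelled libraries 5 and 3, where the G2/M sum was also highest, while control 4 had the highest such sum of the controls (145 TPM) and the second-lowest G2/M sum. Of 8 B and plasma cell markers 3 rose (Ighm, Jchain and Mzb1; 31.2 to 62.1 and 70.2 to 134 TPM), and of 6 bile duct markers 5 rose (211 to 329.7 and 453 to 795 TPM). No marker of these 3 lists was at 0 in all libraries, and the part of these cells in the cycle genes was not tested.

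Kupffer cell and neutrophil markers had another order of libraries. Of 10 Kupffer cell and macrophage markers none was called, and their sum was lowest of all in knockout-labelled library 5 (843 TPM), which had the highest G2/M sum. Their range was 849 to 2709 TPM in controls and 843 to 1979 TPM in knockout-labelled libraries. The neutrophil sum was also lowest there (65.1 TPM), with ranges of 126 to 1007 TPM and 65.1 to 2003 TPM. Of 10 T and NK cell markers 2 fell (Cd3d and Trbc2; 67.9 to 103 and 73.0 to 182 TPM). Of 5 tested erythroid markers 1 rose (Epor), and the erythroid sum, carried by the haemoglobin genes Hbb-bs and Hba-a1, was 233 to 676 TPM in controls and 373 to 1006 TPM in knockout-labelled libraries. Klf1, a transcription factor of erythroid precursors, was at 0.125 TPM over all libraries. The hepatocyte sum was 897 to 3018 TPM in controls and 829 to 1779 TPM in knockout-labelled libraries, lowest in library 5 of each group, and of the 12 hepatocyte markers 3 fell (Cyp2e1, Cyp3a11 and Apoa2, with log2 fold changes of -3.30, -3.10 and -2.14).

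Further genes of the same pathways were read by role, from lists chosen with earlier results of these data known. Their shares beside all tested genes are therefore a description only. Of 40 other G2/M genes 3 rose and none fell, beside 10.6% higher and 9.08% lower of all tested genes. Of these 40, 37 had positive fold changes, and the median was 0.43. Kif4, a chromosome-bound kinesin, was at 8.54 to 10.4 CPM in the controls and 11.4 to 16.1 CPM in knockout-labelled libraries, without overlap (log2 fold change 0.57 ± 0.11 SE, edgeR adjusted p = 0.0022). Ncaph, a condensin subunit, and Espl1, which encodes separase, rose by 0.69 ± 0.19 and 0.74 ± 0.24 (edgeR adjusted p = 0.024 and 0.043), with overlap. Of 34 of these genes with a promoter window 26 (76.5%) held CHR letters.

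Of 40 other G1/S genes 4 fell and none rose, beside 9.08% lower and 10.6% higher of all tested genes, and the median was 0.05. Rpa1, which encodes a subunit of the protein that coats single-stranded DNA, went from 163 ± 19.4 to 112 ± 4.84 CPM (SD, n = 5 per group; adjusted p = 3.2e-04, edgeR). Dut, whose enzyme clears dUTP, went from 21.1 ± 3.04 to 14.1 ± 1.68 CPM (SD, n = 5 per group; adjusted p = 0.0026, edgeR). Slbp, the histone mRNA binding protein, had a log2 fold change of -0.26 ± 0.05 and Orc6, an origin recognition subunit, of -0.33 ± 0.09 (SE).

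Of the cycle genes listed here, the largest difference was in a regulator upstream of the cycle, Mycn. Of 27 other G1 and E2F regulators 7 rose and none fell, beside the same 10.6% and 9.08% of all tested genes, with a median of 0.01. Mycn encodes a Myc family transcription factor. It was at 1.05, 1.16, 1.26, 1.08 and 1.02 CPM in controls 1 to 5 and at 6.72, 5.38, 4.32, 4.33 and 5.94 CPM in knockout-labelled libraries 1 to 5, well apart (log2 fold change 2.25 ± 0.17 SE, edgeR adjusted p = 1.6e-06). Myc went from 7.74 ± 1.36 to 19.2 ± 4.40 CPM (SD, n = 5 per group; adjusted p = 2.2e-04, edgeR). Wee1, the kinase that restrains CDK1, went from 3.34 ± 0.492 to 8.53 ± 1.02 CPM (SD, n = 5 per group; adjusted p = 1.6e-05, edgeR). Cdkn2a, the locus of the brakes p16 and ARF, went from 3.67 ± 0.863 to 6.60 ± 0.645 CPM (SD, n = 5 per group; adjusted p = 0.0021, edgeR).

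Of 16 known p53 target genes 6 rose and none fell, beside 10.6% higher and 9.08% lower of all tested genes. The median log2 fold change was 0.19. This list was also chosen with earlier results of these data known, so the share called is a description only. Phlda3 went from 12.8 ± 1.83 to 29.7 ± 1.93 CPM (SD, n = 5 per group; adjusted p = 2.1e-06, edgeR). Eda2r, a receptor of the TNF receptor family, rose by 0.98 ± 0.11, Bbc3, the apoptosis gene also called Puma, by 0.88 ± 0.11 and Plk2 by 0.82 ± 0.10 on the log2 scale (SE). Mdm2, the feedback inhibitor of p53 and a standard target, was at 41.2 ± 2.65 and 40.6 ± 3.06 CPM (SD, n = 5 per group; adjusted p = 0.88, edgeR), and it is named after its values were seen. Cdkn1a, itself a known p53 target, rose as well. Whether p53 had a part in any of these differences was not tested.

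**Figure D5:**
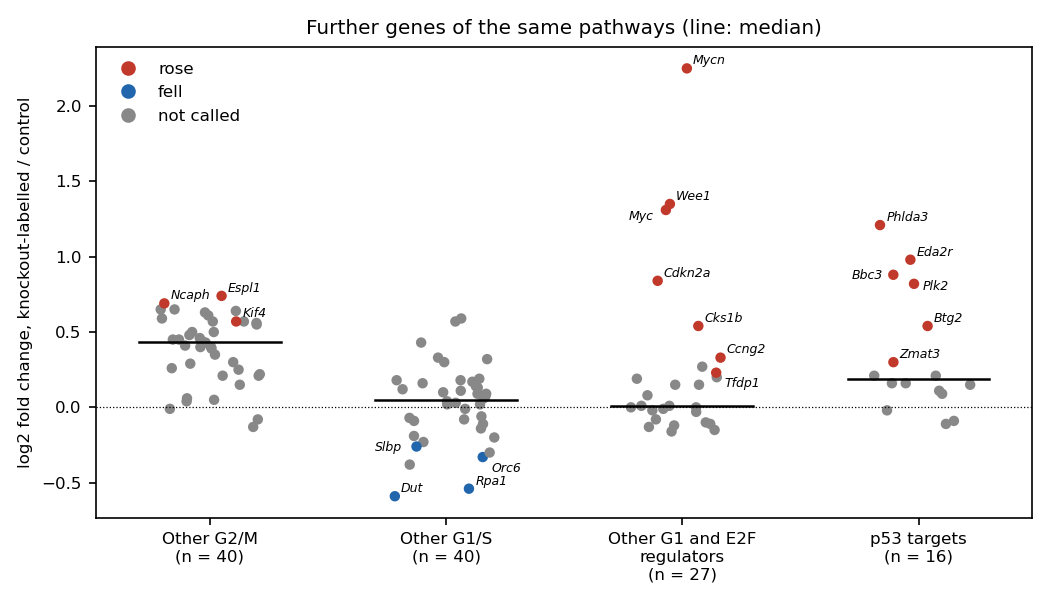
Log2 fold change (knockout-labelled over control) of 4 further gene lists, 1 point per gene, with the list's median as a line and called genes named. The other G2/M genes centre on 0.43 with 3 calls, the other G1/S genes on 0.05 with 4 lower, and Mycn is highest at 2.25.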

How the data were processed

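The samples were RNA of mouse liver endothelial cells, 5 Alk1-HEC-KO and 5 Control libraries, on a BGISeq-500 per the labels' protocols. Trim Galore 0.6.4 and kallisto 0.4.6 are named per the submitters' processing notes, with GRCm38.p6 as the build. In the deposited files are expected counts (estimated counts per gene, which need not be whole) and TPM, made by the authors; not given in the sources used here are the gene summary step, the annotation release and the strand setting. Of 55385 genes 55144 matched a symbol in GENCODE M21 (GRCm38), and 54487 also by version.

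Counts were rounded and tested with edgeR 4.0.16 (R 4.3.3) by its quasi-likelihood test, with robust estimation, genotype alone, TMM factors from 0.943 to 1.04 and a minimum count of 10 in filterByExpr. This left 15043 genes with 99.87 to 99.9% of each library's counts. P-values were adjusted by Benjamini-Hochberg over these genes, with a threshold of 0.05. "Rose", "fell" and "called" refer to this test unless another is named. CPM used TMM library sizes, log2 CPM a prior count of 2. Values are mean ± SD. TPM was used wherever genes are compared. Depth was nearly equal, so counting error is small for abundant genes and matters for scarce ones (the lowest count of any of the 52 in a library was 10, for Ccne1). Within a group every pair of libraries differed beyond sampling noise (chi-square per degree of freedom 11.39 to 32.56). P-values cover only how these libraries spread, and that spread may be technical. The fit was tested on simulated data. It called 58.2% of 67 genes changed 1.5-fold and 89.6% of 67 genes changed 2-fold, so a gene without a call may still differ.

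The 52 genes and all lists were chosen with earlier results of these data known. The text names all 52, Acvrl1, up to 4 called genes with the largest fold change of each further list, markers beside a result, and Mdm2. Ccng1 stands in 2 of the further lists. Kallisto shares reads between near-identical transcripts: 5 of the 52 have a named pseudogene copy and 26 overlap another annotated gene, 14 a protein-coding one. Where their transcripts share sequence, their values carry that uncertainty, and how much they share was not tested. Alternatives were DESeq2 1.42.0, limma-voom (limma 3.58.1), edgeR with DESeq2 size factors, with library size alone, without robust estimation and without a filter, a filter of 5 CPM in 5 libraries, transcript length offsets, limma on log2(TPM + 1) and log2(TPM + 0.1), the replicate number as a block, each library left out, and controls 4 and 5 left out. Promoter sequences and starts are RefSeq's. For 34 of the 40 the last bases of the window stood in the early part of a GENCODE transcript of that gene, which does not show that the starts are the same.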

Additional observations from a re-analysis of the deposited data

Results flagged for a closer look

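In 6 of the 104 groups checked (52 genes in each of 2 groups of 5 libraries), 1 library stood apart from the other 4, with a gap to its neighbour over 0.71 of the group's whole range. Chance alone flags about 1 group in 20. Cdc6 in control 5 was at 3.20 CPM beside 1.14 to 1.40 CPM in the other controls, and in knockout-labelled library 5 at 3.93 CPM beside 1.97 to 2.51 CPM. Mcm7 in control 5 was at 24.98 CPM beside 16.6 to 19.0 CPM, and in knockout-labelled library 5 at 28.7 CPM beside 25.1 to 25.9 CPM. Top2a in control 5 was at 16.4 CPM beside 8.11 to 10.01 CPM. Kif20a in control 2 was at 2.96 CPM beside 4.96 to 5.72 CPM, the only one of the 6 that was low.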

How the results depend on the processing

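Cdkn1a, Ccnd1 and Mcm7 were called under all 22 alternatives, with log2 fold changes of 1.22 to 1.54, 0.40 to 0.56 and 0.39 to 0.57. Of 1128 results for single genes of the 52, 1065 stayed on the same side of the threshold in the same direction or uncalled, 32 calls were lost (Gins2, Mybl2 and Mcm3) and 31 were gained in 15 genes. The fitted sign changed 28 times, in 10 genes that were not called, and no called gene reversed. Leaving out 1 library gave 3 to 9 higher and 1 to 3 lower of the 52, with 9 higher without control 5. The lower calls numbered 1 with limma-voom, without robust estimation, with transcript length offsets and with the replicate block, and 0 with library size alone, log2(TPM + 1), log2(TPM + 0.1) and without controls 4 and 5. Over all genes 1593 were higher and 1366 lower, and the split was 1968 and 1024 with library size alone, 1580 and 858 with transcript length offsets, 1819 and 664 with log2(TPM + 1), 1810 and 668 with log2(TPM + 0.1), and 1074 and 866 without controls 4 and 5. No scaling moved the median of all genes by more than 0.0977. With the replicate block 13 of the 52 were higher, among them 7 G2/M genes (Bub1, Ccna2, Cenpf, Mki67, Plk1, Top2a and Tpx2), and 1 lower. The correlation of deviations between libraries with the same number was -0.196, 0.350, 0.0147, 0.108 and 0.284 for numbers 1 to 5. Not every library correlated best with its own number. These correlations over all tested genes do not settle whether libraries with the same number belong together, and no label ties them. The cause of these differences was not tested. The lowest count of any of the 52 genes in a library was 10, for Ccne1, and what counting depth alone limits was not tested.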
